A study of Mus musculus with 6 samples.

Results

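Tumour cells growing in the lung were compared between 2 time points in mice that received only vehicle. MVT1 is a cell line from a mammary tumour of a mouse carrying Myc and Vegf transgenes under the mouse mammary tumour virus promoter. The cells were tagged with green fluorescent protein (GFP), and 3000000 were injected intravenously into each wild-type FVB/N mouse, the strain in which the line arose. GFP-positive cells were sorted from lungs with metastases 1 week or 2 weeks after injection, and their RNA was hybridised to whole-genome Affymetrix mouse arrays. Gavage began 1 week after injection, so vehicle dosing had run for a week by the later sort and had only reached its start at the earlier one, and the time effect includes that week of dosing. The comparison takes 2 vehicle arrays at 2 weeks minus 2 vehicle arrays at 1 week, which is 4 of the 6 arrays of the series, and the design text gives 2 mice for each vehicle group. The other 2 arrays came from mice given the CSF1 receptor inhibitor GW2580 at 160 mg per kg and sorted at 2 weeks. They lent their spread to the test and had no weight in the differences. They also counted in the choice of probe sets and in the mean level a gene had to reach to be tested. All groups shared this single line, the host strain and the route of injection. A level is a log2 intensity after RMA, a difference is the 2-week mean minus the 1-week mean on that log2 scale, and a gene passed at an adjusted p under 0.05 over all 13090 genes tested with limma. With 2 arrays a group, p-values measure the spread between these arrays.

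Tumour cells that lodge in lung capillaries must survive, attach and start to divide. Growth factor and stress signals first switch on immediate early genes, a rapid class of transcription factors. Cells that divide make the genes of DNA replication in S phase under E2F factors and those of mitosis in G2 under the MuvB complex with B-Myb and FoxM1. As nodules grow, cells can outpace their supply of oxygen. Cytokines such as IL-6 induce acute-phase proteins, a class of secreted defence proteins best known from liver and also made by lung and mammary epithelium.

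At 2 weeks, 33 of 49 mitosis genes, 12 of 40 DNA replication genes, 12 of 28 immediate early genes and 7 of 17 cholesterol synthesis genes fell. In the other direction 6 of 24 acute-phase genes, 8 of 25 alpha-arrestins and FOXO targets, 5 of 37 hypoxia and glycolysis genes and 7 of 11 snoRNA host genes rose. In all, 844 of 13090 genes passed, which is 6.45% of those tested. Of these, 489 (3.74%) were higher and 355 (2.71%) were lower at 2 weeks, with a median difference of 0.85 among the former and -0.82 among the latter. A difference of at least 2-fold was seen for 169 of the genes that rose and 101 of those that fell, and one of at least 4-fold for 21 and 6. The median over all genes was 0.02.

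The outcome of the test depended on single arrays, above all on 1-week array 1. Leaving out that array left 0 genes past the threshold (0%), with a smallest adjusted p of 0.0657 in limma and 1630 genes at an unadjusted p under 0.05. All 844 genes kept their direction without it, but that outcome was fixed. In all 844 the 2 groups did not overlap, as in 7416 of the 13090 genes tested. Leaving out 1 array could therefore not turn a sign. Leaving out 1-week array 2 left 413 genes (3.16%), of which 316 were among the 844. Without 2-week array 1 there were 115 (0.879%), with 72 among the 844, and without 2-week array 2 there were 157 (1.20%), with 145 among them. In each of these fits the lone array of a group was assumed to vary like the other groups. Every count of passing genes given here is therefore 0 when 1-week array 1 is left out, and wherever a list's median is given, its value without that array, or its range over the 4 such fits, is given too.

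Control probe sets and markers set 2 of the arrays apart. The 3' minus 5' gap of the beta-actin control was 1.20 on 2-week array 2, against 0.41 to 0.50 on the other 3 vehicle arrays, and for Gapdh the same gap was 0.92 against -0.13 to -0.10. The BioB hybridisation control read 10.03 on 1-week array 1 and 8.95 to 9.02 on the others. Array 1 also lay on the far side of array 2 from the 2-week arrays in most passing genes. It was the lower of the 1-week pair in 424 of the 489 genes that rose (86.7%, against 54.8% of all genes) and the higher in 257 of the 355 that fell (72.4%, against 45.1%).

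**Figure D1:**
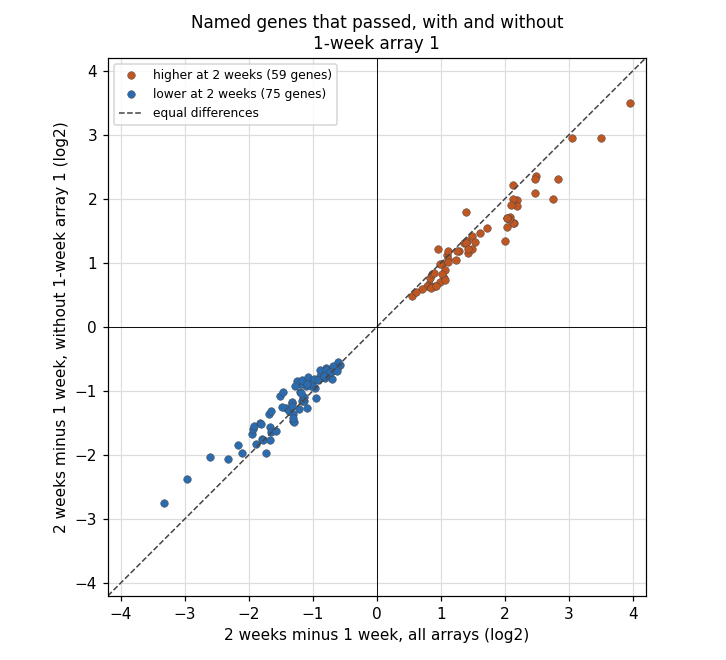
Difference between 2 weeks and 1 week in log2 units with all arrays (horizontal) and without 1-week array 1 (vertical) for the 134 named genes that passed, 59 higher and 75 lower; the dashed line marks equal differences. All points keep their side of 0, which was fixed, since the 2 groups overlap in none of these genes. Most points lie nearer to 0 than the dashed line.

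Markers of mammary epithelial cells were present on all 4 arrays. The keratin genes Krt8 and Krt18, of simple epithelium, read 13.53 to 13.82 and 12.96 to 13.44. Of 11 mammary epithelium markers tested, 2 fell, against 2.71% of all genes, and the rest did not pass. The 2 were the surface glycoprotein gene Cd24a (-1.10) and the milk protein gene Csn3 (-0.95). All 11 differences were below 0, and the mean level was 8.67 and 8.39 at 1 week and 8.01 and 8.22 at 2 weeks. Epcam, a pan-epithelial adhesion gene, read 7.31, 6.89, 6.85 and 6.89. The Myc oncogene read 12.00 and 12.56 at 1 week and 13.16 and 13.36 at 2 weeks, and Vegfa lay between 7.64 and 7.81 on all 4 arrays. The other probe set of Vegfa, at a mean of 7.96 over all 6 arrays, gave a difference of 0.48.

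Markers of other lung cells were also detected, and their levels differed between arrays. The mean level of 10 fibroblast and smooth muscle markers was 8.02 on 1-week array 1, 7.22 on 1-week array 2, and 6.96 and 7.0 at 2 weeks, and 0 of the 10 passed. Col3a1, a fibrillar collagen of fibroblasts, read 11.68 and 10.51 at 1 week against 9.29 and 9.49. Of the 14 lung epithelium markers, the mean was 7.51 and 7.07 at 1 week and 6.84 and 6.91 at 2 weeks. Scgb1a1, the secretoglobin of club cells (chosen after its values were seen), read 11.31 and 9.59 at 1 week and 6.49 and 8.08 at 2 weeks (adjusted p = 0.109, limma). Only the surfactant gene Sftpd passed among these markers, at 6.38 and 6.48 against 7.50 and 7.13.

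Leukocyte markers were detected as well. The mean of 19 macrophage and monocyte markers was 6.95 and 6.92 at 1 week and 6.89 and 6.98 at 2 weeks. Among them Ptprc, the pan-leukocyte phosphatase CD45, fell by 0.61 (7.57, 7.73, 6.97 and 7.11). Csf1r, the receptor that GW2580 targets, read 7.71, 7.91, 7.57 and 7.52. Cd68, a lysosomal protein gene of macrophages, had the highest difference of the list at 0.98 (9.66 and 10.15 at 1 week, 10.76 and above at 2 weeks) and did not pass, and 8 of the 19 markers lay above 0. Adgre1, the F4/80 antigen (chosen after its values were seen), read 5.0 to 5.29, close to the floor of 4.97 that a gene had to reach to be tested. The 6 neutrophil markers averaged 5.97 and 6.23 at 1 week and 6.44 and 6.73 at 2 weeks, a mean carried by the calprotectin genes S100a8 (7.77, 8.37, 9.46 and 10.20) and S100a9, neither of which passed. Among the 8 lymphocyte, 7 endothelial and 5 erythroid or platelet markers 0 passed. In sorted bulk RNA a changed share of cells and a changed amount of RNA per cell cannot be told apart, and the part of other cell types in the differences below was not tested.

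**Figure D2:**
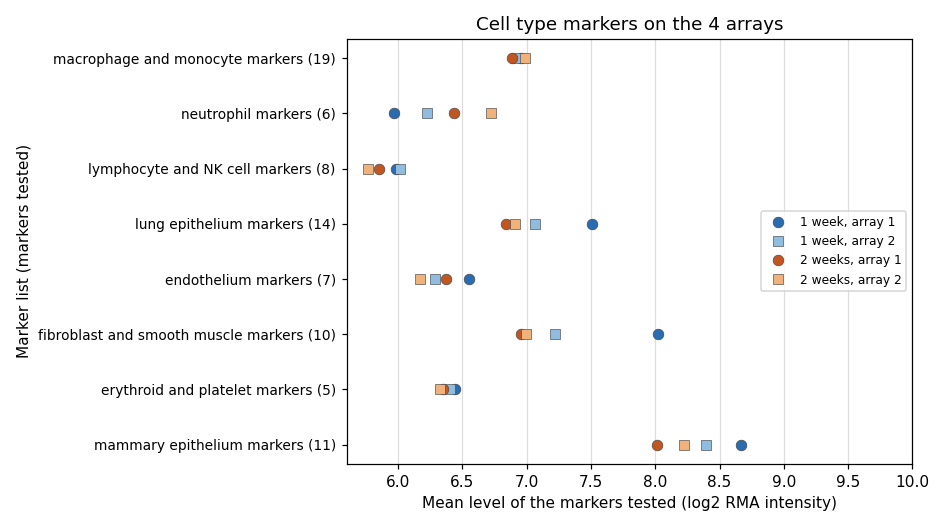
Mean level (log2 RMA intensity) of the tested markers of 8 cell types on each of the 4 vehicle arrays; the number of markers is in brackets. Fibroblast and lung epithelium markers were highest on 1-week array 1, at 8.02 and 7.51, and macrophage markers lay between 6.89 and 6.98.

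Mitotic genes were lower at 2 weeks. Of 49 tested, 33 fell, 0 rose and 16 did not pass, and all 49 differences were below 0, with a median of -0.90 against 0.02 over all genes. The share that fell compares with 2.71% of all genes. Ube2c, which loads ubiquitin for the anaphase-promoting complex, read 12.01 and 11.75 at 1 week and 10.59 and 10.53 at 2 weeks, a difference of -1.32 (SE 0.16, adjusted p = 0.0102, limma). Aurka, the spindle pole kinase Aurora A, read 10.21 and 9.93 against 8.75 and 8.74, a difference of -1.32 (SE 0.16, adjusted p = 0.0102, limma). For both genes the 2-week arrays read nearly the same. They lay clear of the 1-week pair, as in all 844 passing genes.

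Every functional class of the mitotic list had members that fell. Among kinases 7 of 8 fell, among spindle motors and their partners 10 of 13, and among kinetochore genes 7 of 10. Ccna2, the cyclin of S phase and early mitosis, read 11.14 and 10.78 at 1 week and 9.78 and 9.75 at 2 weeks. The kinetochore genes Spc25 (9.47 and 9.40 against 8.27 and 8.31) and Ndc80 (8.79 and 8.43 against 7.44 and 7.59), which belong to the same microtubule-binding complex, fell by 1.15 and 1.10. Cenpe, a kinesin that aligns chromosomes, read 9.87 and 9.78 against 8.66 and 8.72. Both tested transcription factors of the list, Foxm1 (-0.63) and Mybl2 (-0.69), chosen after their values were seen, also fell. The other probe set of Mybl2 gave -0.09. With 1-week array 1 left out the median of the 49 was -0.79 and all 49 stayed below 0. Leaving out 1-week array 2, 2-week array 1 or 2-week array 2 left 12, 4 and 4 members past the threshold.

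Mitotic genes are known to carry CCAAT boxes, bound by NF-Y, and the CHR element TTTGAA, bound by MuvB, near their starts. The 200 bases upstream of the start are shown for the 5 named mitotic genes with a RefSeq window, from GRCm38.p6, with matches to CCAAT or TTTGAA on either strand in capitals.
Ube2c, chr2:164769729-164769928, plus strand: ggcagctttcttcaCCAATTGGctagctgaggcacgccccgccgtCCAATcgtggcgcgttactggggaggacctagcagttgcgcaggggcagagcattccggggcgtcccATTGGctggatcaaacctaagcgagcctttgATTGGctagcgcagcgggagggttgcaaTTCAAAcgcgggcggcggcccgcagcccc
Aurka, chr2:172370571-172370770, minus strand: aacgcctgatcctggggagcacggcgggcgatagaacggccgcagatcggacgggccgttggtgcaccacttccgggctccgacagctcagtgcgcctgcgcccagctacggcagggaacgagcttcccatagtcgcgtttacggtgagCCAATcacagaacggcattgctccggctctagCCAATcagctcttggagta
Spc25, chr2:69206214-69206413, minus strand: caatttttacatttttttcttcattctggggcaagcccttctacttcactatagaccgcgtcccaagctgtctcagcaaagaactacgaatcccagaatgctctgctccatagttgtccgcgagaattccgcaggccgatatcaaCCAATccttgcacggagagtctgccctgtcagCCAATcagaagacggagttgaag
Cenpe, chr3:135212363-135212562, plus strand: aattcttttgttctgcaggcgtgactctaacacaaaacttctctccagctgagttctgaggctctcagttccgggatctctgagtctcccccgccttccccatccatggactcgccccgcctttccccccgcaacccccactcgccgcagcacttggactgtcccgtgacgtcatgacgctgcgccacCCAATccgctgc
Ndc80, chr17:71526858-71527057, minus strand: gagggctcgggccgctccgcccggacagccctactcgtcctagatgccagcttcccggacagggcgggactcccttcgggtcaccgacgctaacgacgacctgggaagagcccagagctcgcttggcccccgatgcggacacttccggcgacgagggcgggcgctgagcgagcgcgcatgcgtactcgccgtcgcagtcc
Ube2c held 5 CCAAT matches, some sharing bases on opposite strands, and 1 TTTGAA match. Aurka and Spc25 each held 2 CCAAT matches, Cenpe held 1, and Ndc80 held no match in these bases. Over windows from 250 bases before to 50 bases after the start, 20 of the 25 mitotic genes that fell and had a window held CCAAT (80.0%), against 38.0% of 10510 tested genes with a window. The shares were 51.8% of all genes that fell and 36.6% of those that rose. TTTGAA was also held by 20 of the 25 (80.0%), against 11.9% of tested genes, 24.6% of those that fell and 10.3% of those that rose. Among all tested mitotic genes with a window, passing or not, 27 of 39 (69.2%) held CCAAT and 27 of 39 held TTTGAA. In the 250 bases before the start alone, TTTGAA was in 9 of the 25 (36.0%) and in 10.6% of tested genes, so 11 of the 20 held it only at or after the start. These matches describe the sequence and do not show binding.

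DNA replication genes were lower as well. Of 40 tested, 12 fell (against 2.71% of all genes) and 28 did not pass. In all, 39 of 40 were below 0, with a median of -0.52. The 12 that fell included 2 of 12 licensing genes, 5 of 18 fork genes, 2 of 4 nucleotide synthesis genes and 3 of 6 regulators. Cdc6, which loads the MCM helicase at origins, read 8.28 and 7.97 at 1 week and 6.51 and 6.91 at 2 weeks, a difference of -1.42 (SE 0.17, adjusted p = 0.0102, limma). The S-phase cyclin gene Ccne2 read 7.95 and 7.92 against 6.47 and 7.06, and E2f7, an E2F repressor that is itself an E2F target, read 8.36 and 8.40 against 7.2 and 7.28. Mcm10 (-0.96), Uhrf1 (-0.89), which recruits maintenance methylation to new DNA, and Rrm2 (-0.79), of ribonucleotide reductase, also fell. The 2 other probe sets of Mcm10 gave -0.34 and -0.06. Rrm2 is bright, at 12.47 and 12.16 against 11.37 and 11.67. Without 1-week array 1 the median was -0.46, and without 1-week array 2, 2-week array 1 or 2-week array 2 there were 1, 2 and 3 members past the threshold.

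The E2F motif TTTNNCGC was looked for in the same windows. It is shown in capitals in the 200 upstream bases of Cdc6 and E2f7, the named replication genes with the largest differences and a RefSeq window (GRCm38.p6).
Cdc6, chr11:98907951-98908150, plus strand: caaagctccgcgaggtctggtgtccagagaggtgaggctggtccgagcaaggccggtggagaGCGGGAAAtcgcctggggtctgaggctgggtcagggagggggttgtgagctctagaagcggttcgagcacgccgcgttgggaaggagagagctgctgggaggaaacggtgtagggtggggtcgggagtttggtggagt
E2f7, chr10:110745239-110745438, plus strand: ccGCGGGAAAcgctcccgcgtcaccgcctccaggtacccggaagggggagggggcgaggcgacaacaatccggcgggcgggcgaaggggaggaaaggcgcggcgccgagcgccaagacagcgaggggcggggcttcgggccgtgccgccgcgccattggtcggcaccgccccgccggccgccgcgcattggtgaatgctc
Each held 1 match, that of E2f7 at the far end of the stretch. Among replication genes that fell and had a window, 4 of 11 held the motif (36.4%), and among those tested 14 of 33 did (42.4%), against 8.2% of tested genes. Of 12 genes of G1 control, which acts upstream of both programmes, 1 fell, the CDK4 and CDK6 inhibitor gene Cdkn2d (9.68 and 9.66 against 9.15 and 8.95), and the median was -0.24, or -0.29 without 1-week array 1 and -0.16 without 2-week array 1. The median turned to 0.09 with the mean of all probe sets of each gene, and Cdkn2d did not pass when any 1 of the 4 arrays was left out.

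Immediate early factors were lower at 2 weeks. Of 28 tested, 12 fell (against 2.71% of all genes), 0 rose and 16 did not pass, with a median of -0.71 and 24 below 0. Members that fell numbered 4 of 9 AP-1 genes, 3 of 7 of the EGR and NAB group, 2 of 3 Nr4a receptors and 0 of 5 Kruppel-like factors. Fosb, an AP-1 subunit, read 10.67 and 11.13 at 1 week and 8.59 and 9.74 at 2 weeks, a difference of -1.73 (SE 0.36, adjusted p = 0.0357, limma). Egr1, a zinc finger factor induced within minutes of growth factor signalling, read 12.63 and 12.74 against 10.73 and 11.50. Atf3, a stress-induced bZIP factor, read 12.20 and 12.39 against 10.42 and 10.83, so both remained among the bright genes. In these 3 genes 1-week array 2, not array 1, was the higher of its pair, and 2-week array 1 was the lowest of the 4.

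Other genes that answer growth and stress signals also fell. The survival gene Ier3 fell by 1.37, and the orphan receptor gene Nr4a1 read 10.19 and 10.52 against 9.05 at both 2-week arrays. Of 20 MAPK feedback genes 5 fell, against 2.71% of all genes. All 5 were dual-specificity phosphatases, which switch MAP kinases off. These were Dusp2 (-1.31), Dusp14 (-1.03), Dusp5 (-0.77), Dusp1 (-0.70) and Dusp6 (-0.65). The other 5 phosphatases, 8 adaptors and 2 factors did not pass, and the list's median was -0.22. For immediate early factors the median without 1-week array 1 was -0.71, and 0, 1 and 3 members passed without 1-week array 2, 2-week array 1 and 2-week array 2. For the MAPK list these counts were 1, 1 and 0, with a median of -0.21 without 1-week array 1 and -0.11 without 2-week array 1. The AP-1 motif TGANTCA and the serum response element were found in none of the windows of the 9 immediate early genes that fell, against 5.4% and 1.3% of tested genes, which says only that these letters are not in those windows.

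**Figure D3:**
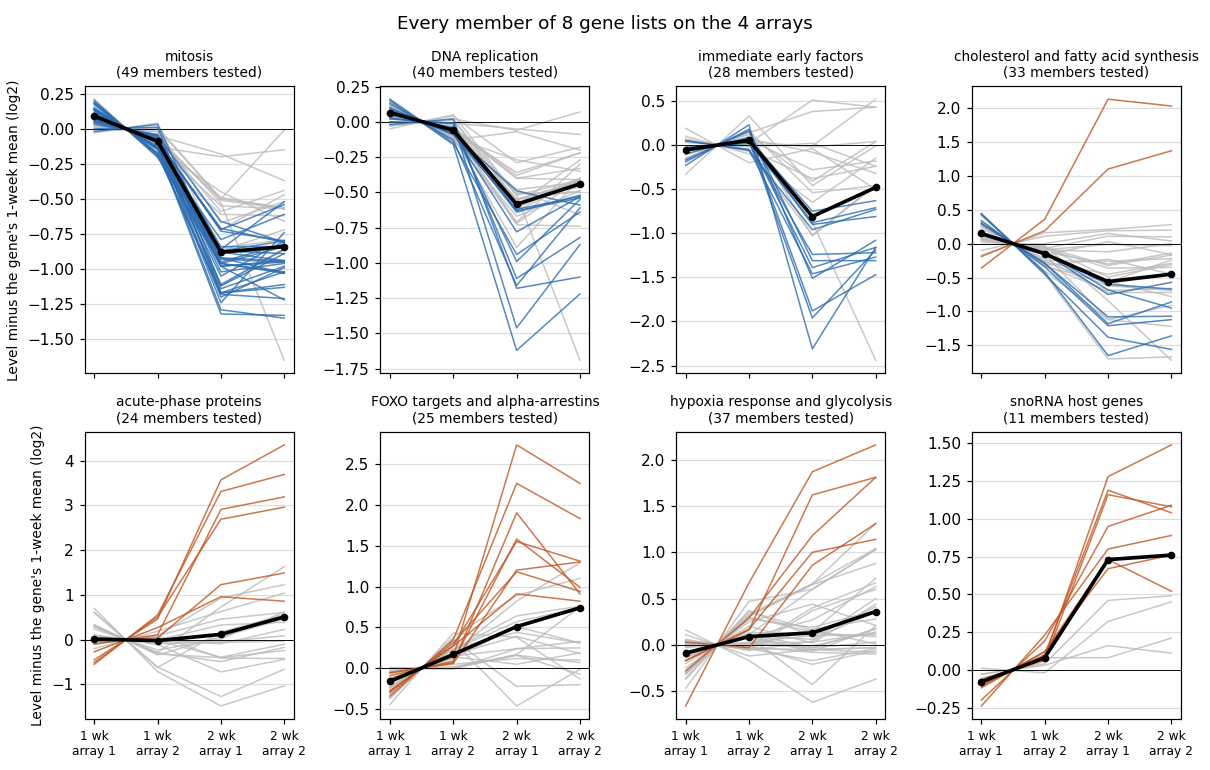
Level of each tested member of 8 lists on the 4 vehicle arrays, as the difference from the gene's 1-week mean (log2); orange lines rose, blue lines fell, grey lines did not pass, and the black line is the list's median on each array. Every panel has its own vertical scale, and all 49 mitosis genes end below their 1-week mean.

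Secreted ligands of these pathways were among the largest falls. The EGF receptor ligand gene Hbegf read 10.98 and 10.87 against 8.95 and 9.32 (-1.79). Tgfa, a second ligand, read 9.28 and 9.26 against 8.39 and 8.73 (-0.71), and its 2 other probe sets gave -0.44 and -0.19. Hbegf and Tgfa were the 2 that fell among 10 EGF family genes tested, against 2.71% of all genes. All 10 were below 0. Il24, an IL-10 family cytokine, had the largest fall of all genes, from 12.55 and 11.41 to 8.18 and 9.12, a difference of -3.33 (SE 0.41, adjusted p = 0.0102, limma). Csf2, which encodes GM-CSF, read 7.81 and 7.16 against 5.25 and 5.38, the latter near the floor. The IL-6 family genes Il11 (-0.89) and Clcf1 (-0.72) fell, and Il20rb, which encodes a receptor chain that binds IL-24, rose from 4.74 and 4.81 to 5.90 and 5.38. Both 1-week values of Il20rb lie under the floor of 4.97, which it reached only through the 2-week arrays. In all 4 of 19 interleukin and colony-stimulating factor genes fell and 1 rose, against 2.71% and 3.74% of all genes.

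Chemokine and NF-kB genes moved in part. Of 22 chemokine genes 3 fell and 1 rose, against 2.71% and 3.74% of all genes. Cxcl1, a neutrophil attractant, read 12.81 and 12.79 against 10.82 and 11.47, and the monocyte attractants Ccl2 (13.02 and 12.58 against 11.04 and 11.60) and Ccl7 (9.22 and 8.65 against 7.55 and 7.97) fell by 1.48 and 1.18. Cxcl17, a mucosal chemokine, rose from 7.43 and 7.57 to 8.96 and 9.03. Of 17 NF-kB genes 3 fell, the subunit gene Nfkb2 (-1.01) and the inhibitors Tnfaip3 (-1.10) and Nfkbie (-0.80), and 0 rose. Ptgs2, the inducible cyclooxygenase COX-2, read 9.08 and 8.82 against 6.53 and 7.15 (-2.11), while Ptgds, which makes prostaglandin D2, rose by 1.02. Without 1-week array 2, 2-week array 1 and 2-week array 2 the members past the threshold were 4, 1 and 2 for interleukins, 2, 0 and 2 for chemokines and 1, 0 and 1 for NF-kB genes. Csf1, the ligand of the receptor that GW2580 blocks, read 10.18, 9.96, 9.34 and 9.64 and did not pass (-0.58, adjusted p = 0.0768, limma).

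Proteolysis and matrix genes gave some of the largest single falls. Serpinb2, the plasminogen activator inhibitor PAI-2, read 9.24 and 8.08 against 5.16 and 6.25, a difference of -2.96 (SE 0.42, adjusted p = 0.0139, limma). Serpinb9b, a serpin related to inhibitors of granzyme B, read 9.39 and 8.66 against 7.08 and 7.14, and Plau, the urokinase gene, fell by 0.57. With Serpinb9 (-0.65), 4 of 9 genes of this list fell, against 2.71% of all genes. None of 13 metalloproteinase and inhibitor genes passed, with a median of -0.37 that ranged from -0.58 to -0.15 when each array was left out, and the collagenase gene Mmp13 read 6.2 and 6.58 against 4.60 and 6.19.

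Of 13 laminin and matrix glycoprotein genes 3 fell and 1 rose, against 2.71% and 3.74% of all genes. Lamb3, a chain of the basement membrane protein laminin-332, read 9.77 and 9.61 against 8.20 and 8.55 (-1.32), and Tnc, which encodes tenascin C, read 6.95 and 6.15 against 5.09 and 5.52. Tgfbi, a matrix protein gene induced by TGF-beta, rose by 1.54, from 6.98 and 7.40 to 8.64 and 8.82. Ccdc80, a secreted matrix protein gene, fell from 9.62 and 8.45 to 6.28 and 6.58, with 1-week array 1 the higher as for the fibroblast markers. Collagens and leucine-rich proteoglycans had the second lowest median of the pathway lists (-0.72), yet 1 of 23 fell and 1 rose, and the median was -0.37 without 1-week array 1. Nppb and Ankrd1, which respond to stretch and to YAP, read 11.50 and 10.97 against 8.63 and 9.18 and 10.79 and 10.23 against 8.55 and 8.56. They were the 2 of 26 YAP and stretch genes that fell, 1 rose, and the median was -0.13, which ranged from -0.18 to -0.01 over the 4 fits that left out an array.

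Acute-phase proteins gave the largest rises. Lcn2, an iron-scavenging lipocalin, read 7.56 and 8.47 at 1 week and 11.58 and 12.36 at 2 weeks, a difference of 3.96 (SE 0.59, adjusted p = 0.016, limma) or 15.5-fold. Orm1, the alpha-1-acid glycoprotein, read 6.07 and 7.17 against 9.93 and 10.31, which is 11.3-fold. Lrg1, a leucine-rich glycoprotein that acts in TGF-beta signalling, read 6.07 and 6.28 against 9.08 and 9.36, which is 8.29-fold. Cp, the ferroxidase ceruloplasmin, read 7.65 and 8.67 against 10.85 and 11.12, and its 6 other probe sets gave 2.34 to 4.14. Both 2-week arrays lay above both 1-week arrays in these 4 genes, as the rule for the largest rises required.

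The rest of the acute-phase list was mixed. Of 24 tested, 6 rose (against 3.74% of all genes) and 18 did not pass, with a median of 0.34. The 6, which include Orm2 (1.36) and Itih4 (0.91), were all among the 16 secreted members. Orm2 and Itih4 had 1-week means of 4.85 and 4.87, under the floor of 4.97, and reached it only through the 2-week arrays. None of the 8 signalling members passed, with differences from -0.58 for Socs3 to 0.54 for Stat3, chosen after their values were seen. The secreted innate defence genes Saa3 (9.76 and 8.54 against 7.88 and 8.49) and Cfb (7.75 and 6.34 against 5.57 and 6.02), also chosen after their values were seen, had differences of -0.96 and -1.25 and did not pass. The median was 0.50 without 1-week array 1, 0.07 without 1-week array 2, 0.51 without 2-week array 1 and 0.12 without 2-week array 2. Past the threshold were 5, 4 and 1 members without 1-week array 2, 2-week array 1 and 2-week array 2. Lcn2 is also a neutrophil granule gene. Of the 6 neutrophil markers 5 lay above 0 and 0 passed, with a mean carried by S100a8 and S100a9. Their median was 0.03, or 0.01 without 1-week array 1. The part of neutrophils in the rise of Lcn2 was not tested.

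**Figure D4:**
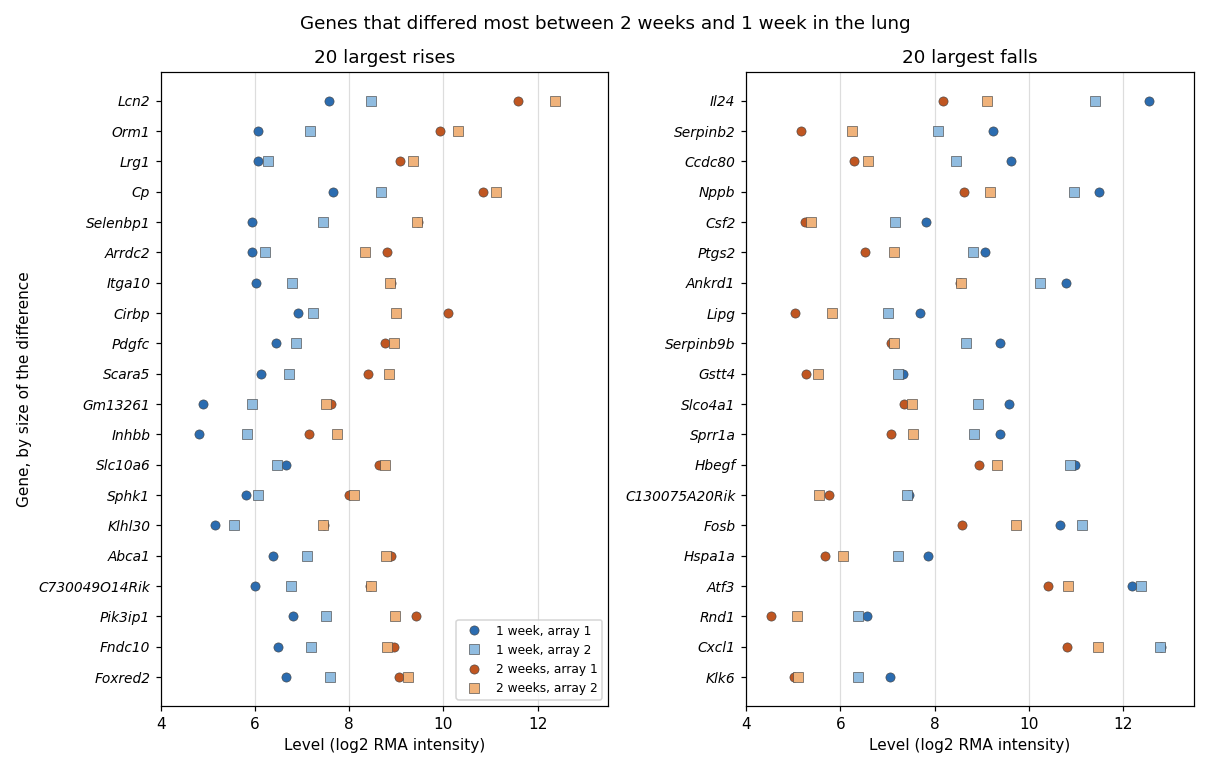
Level (log2 RMA intensity) on each of the 4 vehicle arrays of the 20 genes with the largest rises (left) and the 20 with the largest falls (right), blue at 1 week and orange at 2 weeks. The differences run from 2.03 to 3.96 on the left and from 1.66 to 3.33 in size on the right. No overlap between the 1-week and 2-week arrays was a condition for being drawn. It was met by all 844 passing genes and by 7416 of the 13090 tested.

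Alpha-arrestins and FOXO targets were higher at 2 weeks. Of 25 tested, 8 rose and 0 fell, with a median of 0.46 and 23 above 0. The share that rose compares with 3.74% of all genes. Arrdc2, an alpha-arrestin that directs membrane proteins to breakdown, read 5.94 and 6.21 at 1 week and 8.80 and 8.33 at 2 weeks, a difference of 2.49 (SE 0.40, adjusted p = 0.0194, limma). Its relatives Txnip, an inhibitor of glucose uptake, and Arrdc4 rose by 1.43 and 1.40. Txnip went from 9.75 and 10.31 to 11.58 and 11.34, and Arrdc4 from 7.97 and 8.10 to 9.93 and 8.94. Their other probe sets gave 1.01 for Txnip and 0.36 for Arrdc4. Pik3ip1, an inhibitor of PI3 kinase, read 6.81 and 7.50 against 9.41 and 8.98 (2.04).

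Several FOXO targets that restrain growth also rose. Sesn1, a sestrin that lowers mTORC1 activity, rose by 1.29 (7.34, 7.52, 9.01 and 8.42), and Fbxo32, the ubiquitin ligase atrogin-1, by 1.25 (6.41, 6.52, 7.66 and 7.76). Of 17 targets 5 rose, of 5 arrestins 3, and of the 3 factors 0, with Foxo1 at 0.99 (adjusted p = 0.0537, limma), chosen after its value was seen. The median was 0.43 without 1-week array 1 and 0.74 without 2-week array 1, and 7, 2 and 4 members passed without 1-week array 2, 2-week array 1 and 2-week array 2. The FOXO motif TGTTTAC, chosen after the data were seen, was in 3 of the 7 windows of members that rose (42.9%). It was in 5 of 22 windows of all members tested (22.7%) and in 2.6% of tested genes.

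Some targets of hypoxia rose at 2 weeks. Of 15 hypoxia targets 5 rose, against 3.74% of all genes. Of 17 genes of glycolysis and 5 factors 0 passed, and the whole list of 37 had a median of 0.23. Bnip3, a mitophagy receptor, read 8.87 and 10.20 at 1 week and 11.40 and 11.69 at 2 weeks (2.01). The carbonic anhydrase gene Car12 read 5.34 and 5.67 against 7.13 and 7.32 (1.71), and Car9, a hallmark of hypoxic tumour cells, read 5.59 and 5.53 against 6.42 and 6.87 (1.09). Ndrg1, a stress and differentiation gene, rose by 1.49 and P4ha2, a collagen prolyl hydroxylase, by 1.06. Ldha, the lactate dehydrogenase gene (chosen after its values were seen), stayed within 13.26 to 13.32 on all arrays. The median ranged from 0.07 without 1-week array 1 to 0.43 without 1-week array 2, and 4, 0 and 0 members passed without 1-week array 2, 2-week array 1 and 2-week array 2. The hypoxia element core ACGTG was in 3 of 4 windows of members that rose, in 18 of 32 of those tested (56.2%) and in 25.0% of tested genes.

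Sterol synthesis and sterol export moved in opposite directions. Of 17 cholesterol synthesis genes 7 fell, of 8 fatty acid genes 0 passed, and both tested export genes rose. Over all genes 2.71% fell and 3.74% rose. Cyp51, which removes a methyl group from lanosterol, read 9.60 and 8.75 against 7.52 and 7.81 (-1.51). Its 2 other probe sets gave -1.20 and 0.01. Fdps, which makes farnesyl diphosphate, read 11.84 and 10.95 against 10.02 and 9.84 (-1.46), and Msmo1 and Hmgcs1 fell by 1.16 and 1.07. In all 4 genes 1-week array 1 was the higher of its pair. Abca1, the transporter that exports cholesterol to apolipoproteins, read 6.39 and 7.11 against 8.88 and 8.78 (2.08), and its partner Abcg1 read 7.87 and 8.25 against 9.16 and 9.43 (1.23).

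The sterol list as a whole had 33 members tested, of which 8 fell and 2 rose, with a median of -0.41. Its median was -0.33 without 1-week array 1 and -0.65 without 1-week array 2, and 8, 2 and 1 members passed without 1-week array 2, 2-week array 1 and 2-week array 2. The sterol regulatory element TCACNCCAC was in 1 of 7 windows of members that passed, in 1 of 25 of those tested (4.0%) and in 1.1% of tested genes.

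Host genes of small nucleolar RNAs, whose spliced transcripts carry the small RNAs in their introns, were higher at 2 weeks. Of 11 tested, 7 rose (against 3.74% of all genes) and 0 fell, all 11 were above 0, and the median was 0.71. Snhg7 read 6.84 and 7.0 at 1 week and 8.20 and 8.41 at 2 weeks, a difference of 1.39 (SE 0.14, adjusted p = 0.0102, limma). Snhg6 (9.42, 9.54, 10.64 and 10.56), Snhg4 (8.12, 8.32, 9.41 and 9.26) and Zfas1 (11.02, 11.41, 12.17 and 12.31) rose by 1.12, 1.12 and 1.03. Gas5, the growth arrest transcript, read 12.39 and 12.62 against 13.17 and 13.26, while its 3 other probe sets gave differences from -0.32 to 0.66. Of 23 ribosome biogenesis genes 0 passed, with a median of 0.09 that ranged from 0.03 to 0.17 over these fits. Of 15 cytosolic ribosomal protein genes 1 rose, Rpl37 (0.61), with 14 of 15 above 0 and a median of 0.21 (0.18 without 1-week array 1). Without 1-week array 1 the host gene median was 0.59, and 5, 1 and 2 passed without 1-week array 2, 2-week array 1 and 2-week array 2.

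Growth regulators moved singly. The BMP target genes Id1 and Id3, inhibitors of differentiation, fell from 10.57 and 10.80 to 9.61 and 9.16 and from 10.70 and 10.81 to 9.66 and 9.41. Inhbb, the beta-B chain of activin, rose by 2.13 (4.81, 5.82, 7.15 and 7.74), although its other probe set gave -0.01. Tgfbr3, the coreceptor betaglycan, rose by 0.84, and its other probe set gave 0.19. In the Myc network Myc rose by 0.98 (SE 0.21, adjusted p = 0.0383, limma) and its antagonist Mxd4 by 1.04, and the other 9 of 11 did not pass. The 3 other probe sets of Mxd4 gave -0.003 to 0.915. Of 20 p53 targets 3 rose (against 3.74% of all genes) and 3 fell (against 2.71%). Of these Sesn1 and Trp53inp1 (1.07) rose, and Gtse1 (-0.79), itself a mitotic gene, and the kinase genes Plk3 and Plk2 (-0.79 and -0.68) fell. The other probe set of Plk2, at a mean of 5.01 over all 6 arrays, gave 0.21, and that of Trp53inp1 gave 0.24. Angpt1, the ligand of the endothelial receptor Tie2, rose by 1.11 and the VEGF coreceptor gene Nrp1 fell by 0.82. The 1-week mean of Angpt1, 4.96, lies just under the floor of 4.97.

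Stress and defence lists were partly involved, beside 3.74% of all genes that rose and 2.71% that fell. Of 19 heat shock genes 3 fell, the inducible chaperone gene Hspa1a (7.86 and 7.23 against 5.67 and 6.05), Dnajb1 (-1.19) and Hsph1 (-0.99), with a median of -0.37 that was -0.13 without 1-week array 1. Of 19 glutathione and NRF2 genes 3 rose, with Selenbp1, a selenium-binding oxidase, at 5.94 and 7.45 against 9.46 and 9.44. Gstm1, a glutathione transferase, read 7.13 and 7.43 against 9.02 and 8.77, and its 3 other probe sets gave 0.29 to 1.57. Scara5, a ferritin receptor, rose by 2.19, and its other probe set, at a mean of 5.04 over all 6 arrays, gave 0.01. Of 17 glucocorticoid response genes 2 rose, the metallothionein gene Mt2 (0.82) and Klf9 (0.79), and Dusp1 fell. The 4 other probe sets of Klf9 gave -0.23 to 1.00. Of 19 clock genes 0 passed, and Per1 had the largest difference at 0.90 (adjusted p = 0.0722, limma). Cirbp, the cold-inducible RNA-binding protein, rose from 6.92 and 7.24 to 10.10 and 9.0, and the other 12 genes of its list did not pass.

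Several lists held few or no genes that passed. Of 26 interferon-stimulated genes 1 fell, of 12 class I presentation genes 1 fell, and of 30 genes of the unfolded protein and ATF4 response 1 rose and 1 fell. Of 22 lysosome genes and of 15 genes of epithelial and mesenchymal state 0 passed. Among 20 oxidative phosphorylation genes 1 rose, Cox7c, from 5.85 and 6.26 to 7.40 and 7.56. These counts stand beside the 6.45% of all genes that passed.

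**Figure D5:**
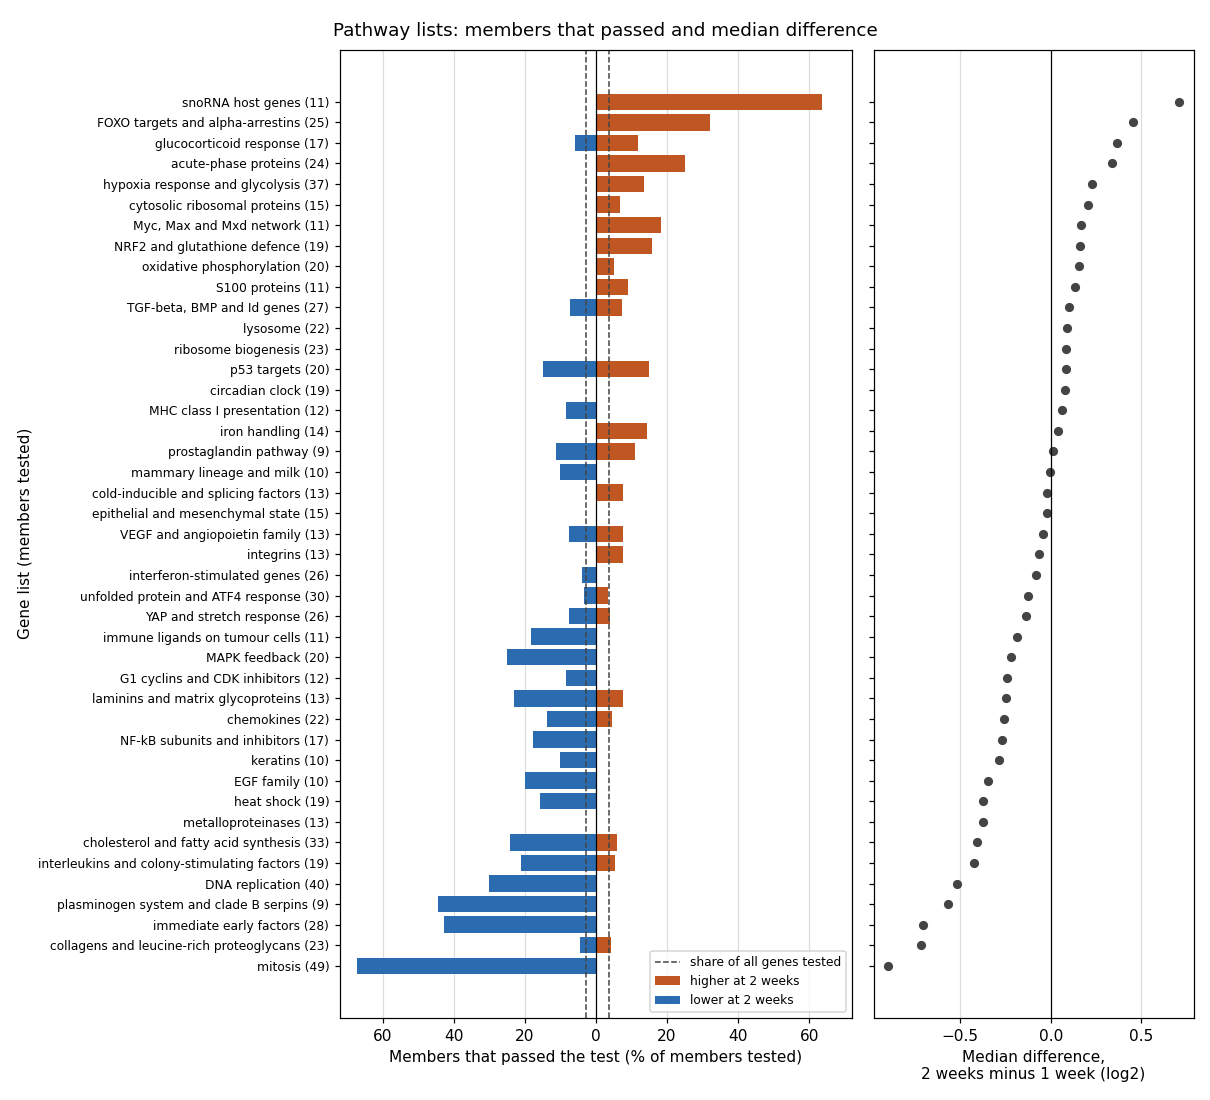
For 43 pathway lists, the percent of tested members that were higher (orange, right) or lower (blue, left) at 2 weeks, with dashed lines at the 3.74% and 2.71% of all genes (left panel), and the median difference of the members tested in log2 units (right panel); lists are ordered by that median and the number tested is in brackets. The median runs from -0.90 for mitosis to 0.71 for snoRNA host genes.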

How the data were processed

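Per the submitters' processing notes RMA was used, and the authors deposited log2 values for 45101 probe sets. Neither the RMA version nor the probe definitions appear in the sources used here. Quantile normalisation hides any shift that most genes share. An array has no read depth, so precision is set by the number of arrays.

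Outside the controls there were 45037 probe sets, of which 34945 had 1 symbol in the platform annotation. Those with several (932) or none (9160) were not named. Where a gene had more than 1 probe set, the brightest over the 6 arrays stood for it, giving 18193 genes. A floor at 4.97, the 40th percentile of probe set means over the 6 arrays, left 13090 genes.

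The 13090 genes were fitted with limma 3.58.1 in R 4.3.3 with 3 group means and eBayes without trend. The GW2580 arrays contributed spread and had no weight in the difference. Benjamini-Hochberg adjustment ran over all 13090 genes, and each adjusted p printed comes from that fit unless another is named. SE denotes limma's standard error. The fit was tested on simulated data. No permutation test was made, because 2 arrays against 2 give 0.333 at best (two-sided).

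The comparison, the 51 lists (43 of pathways and 8 of markers, with 872 of 1051 listed genes tested) and the rule for named genes were chosen with earlier results of these data known. Lists are therefore described by counts and medians, with no test. Listed genes that lack their own probe set or lie under the floor were not analysed here. The largest rises and falls were taken among passing genes whose 2 groups do not overlap, a condition all 844 passing genes met. Named genes were the 20 largest rises and 20 largest falls that passed, up to 6 passing members of each list by size (or 2 where none passed), and a few lineage genes. Any other is marked as chosen after its values were seen.

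Promoter sequences are from RefSeq, GRCm38.p6, for 10510 of the 13090 genes. Motifs were searched on both strands. Promoters are printed for 2 lists, fewer than first planned and with more members of the mitotic list, a choice made after the matches were seen.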

Additional observations from a re-analysis of the deposited data

Results flagged for a closer look

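Probe sets without a gene symbol in the annotation used were outside the comparison of named genes. When every probe set was tested on its own with limma, 30 of the 3290 tested without a symbol were higher at 2 weeks and 145 were lower. That is 5.32% of them, against 3.5% of the 23108 tested with 1 symbol. The largest differences among them were -2.71 and 2.32. No other value met the rules for a closer look, and groups of 2 arrays are too small for a test of outlying arrays.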

How the results depend on the processing

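None of the 134 named genes that passed changed sign under the alternatives run, and 0 to 6 of the 51 list medians did in each. In the 4 fits that left out 1 array each, all 844 genes, the 134 among them, kept their sign. That was fixed in advance, since the groups overlapped in none of the 844. Leaving out each array in turn gave 0 to 413 passing genes, 0 to 282 higher and 0 to 131 lower. The members that passed then ranged from 0 to 12 for mitosis, 0 to 3 for DNA replication and for immediate early factors, 0 to 1 for MAPK feedback and 0 to 6 for falling sterol genes. They ranged from 0 to 5 for acute-phase proteins, 0 to 7 for alpha-arrestins and FOXO targets, 0 to 4 for hypoxia and 0 to 5 for snoRNA hosts. Deviations of arrays with equal numbers correlated at r = 0.0022 between the vehicle groups, 0.292 between GW2580 and 1-week vehicle and 0.0094 between GW2580 and 2-week vehicle, so the numbers were not taken to pair the arrays, and the fit with the number as a replicate block gave 1223 genes, 746 higher and 477 lower, with 15 sterol genes falling and 10 hypoxia genes rising. A floor at the 60th percentile left 3 hypoxia genes rising. The counts were 1059 with the 4 vehicle arrays alone, 1011 with a variance trend and robust fit, 830 without a floor, 739 with the mean of a gene's probe sets, 863 with the brightest probe set chosen on 4 arrays, and 927 at a common 75th percentile. Testing every probe set on its own gave 1012, and the share that was higher was 50.9% in place of 57.9%. The cause of these changes was not tested. Among 190 rising genes with other probe sets, 82.8% of the 320 others had the same sign, and among 159 falling genes 90.7% of 258. Signal over background limits genes near the floor, and 2 arrays a group limit all of them.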

Other observations

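Long non-coding RNAs made up 48 of the 489 genes that rose (9.82%) and 5 of the 355 that fell (1.41%), against 480 of the 13090 tested (3.67%, by RefSeq class). Over all 480 the median difference was 0.03 and 54.79% were above 0. Firre, an X-linked non-coding RNA that anchors chromatin, read 6.19 and 7.0 at 1 week and 8.52 and 8.35 at 2 weeks, but its 3 other probe sets gave -0.01 to 0.11. Crnde read 5.31 and 5.83 against 7.13 and 7.0. In the other direction Kcnq1ot1, the antisense RNA of an imprinted domain, fell from 7.74 and 8.37 to 6.94 and 7.12. Its 2 other probe sets gave -1.10 and 0.01. These 3 genes were chosen after their values were seen.

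Zinc finger genes with a Zfp symbol leaned towards 2 weeks. Of 252 tested, 17 rose (6.75%) and 2 fell (0.79%), against 3.74% and 2.71% of all genes. The median was 0.17 and 72.62% were above 0, against 52.9% above 0 over all genes.

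Rises and falls differed in brightness. Among the 3273 dimmest genes tested 80 rose and 28 fell, and among the 3273 brightest 81 rose and 103 fell. Several strong rises have no place in a list above. Pdgfc, a platelet-derived growth factor gene, read 6.45 and 6.86 against 8.75 and 8.94, and Sphk1, the sphingosine kinase gene, 5.80 and 6.06 against 8.0 and 8.10. Among falls, the endothelial lipase gene Lipg read 7.69 and 7.02 against 5.03 and 5.83.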
